A study of Mus musculus with 31 samples.

Results

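Fibroblast growth factor (FGF) signalling genes were followed through the developing olfactory nerve of the mouse. The group comprised 34 genes of the 47729 in the count table, chosen by name. It held 12 secreted FGF ligands, the endocrine-type ligand Fgf15, 4 intracellular FGF homologous factors (Fgf11 to Fgf14), 4 receptor tyrosine kinases (Fgfr1 to Fgfr4), the receptor Fgfrl1, which lacks a kinase domain, and 12 genes that FGF signalling induces or that restrain it, namely 7 Sprouty and Spred genes, Dusp6, Etv1, Etv4, Etv5 and Il17rd. All 34 were found, and 32 passed the filter on low counts, while Fgf8 and Fgf17 did not and were not tested.

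FGFs are secreted proteins that bind receptor tyrosine kinases together with heparan sulfate, and the receptors pass the signal through Ras and the MAP kinase cascade. Cells that receive the signal induce the ETS transcription factors Etv4 and Etv5 and a set of inhibitors, among them the Sproutys and the phosphatase Dusp6, so these transcripts are widely used as readouts of the pathway. In the embryonic head, FGFs act in the patterning of the nasal region and the rostral forebrain.

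The libraries came from laser-microdissected pieces of nerve, pooled from several cryosections of embryos carrying Sox10:H2BVenus, a transgene that labels neural crest-derived glia with a fluorescent histone. All 7 groups share this transgene, and none was treated. The pieces were olfactory nerve within the connective tissue under the nasal epithelium, taken at E11.5 (n = 4), E13.5 (n = 7) and E16.5 (n = 4), and the olfactory nerve layer (ONL) on the surface of the olfactory bulb, taken whole at E13.5 (n = 5) and as outer (n = 4) and inner (n = 4) layers at E16.5. Trigeminal nerve, a nerve of the face, was taken at the last stage (n = 3). A piece holds glia, namely olfactory ensheathing cells or Schwann cells, with axons and adjacent tissue, so fewer cells of a type and less RNA per cell cannot be told apart. The authors report that the outer and inner ONL pieces, cut by position, did not separate the molecular types of ensheathing cell found there. They also report that the inner ONL libraries hold some olfactory bulb tissue. The E11.5 and E13.5 groups had more libraries than embryos, so some libraries share an embryo. The labels do not say which, and each library was counted as independent, which makes p-values over libraries of the same embryo too small. Where both groups hold pieces of the same embryo, a fit without that pairing can instead make them too large. The effect of shared embryos within a group was not tested. For the pairing, fits with the replicate number as a block are given, although the labels do not say that the number names an embryo. Those fits hold only the compared groups, so the block is not the only change from the main fit.

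The labels of 10 of the 16 early libraries differed from the groups used here. The groups used are those whose means match the study's table of group means. For E13.5 ONL the largest difference was 0.00083% over 1689 genes, whereas grouping by label left a median difference of 28.2%. In the E13.5 ONL group, 4 libraries carry an E11.5 nerve label and 1 that of E13.5 nerve replicate 1. The 4 libraries of the E11.5 nerve group carry the E13.5 ONL numbers 2 to 5. In the E13.5 nerve group, 6 libraries kept their label and 1 came from E13.5 ONL number 1. The E16.5 libraries kept their labels. Beside most differences that involve early libraries, the value under grouping by label is given, and many of these differences did not hold under it. Some calls that are only said to be lost without single libraries carry no such value.

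Depth ran from 3512627 to 36705535 counts per library, and from 13379107 to 16800784 in the 12 E16.5 libraries other than trigeminal nerve. Levels are in CPM, the counts of a gene relative to the library total after TMM scaling, and 3 counts in a library was taken as the floor. Differences are on the log2 scale, and adjusted p-values come from edgeR's quasi-likelihood test, adjusted by the method of Benjamini and Hochberg over 19332 genes, with a gene called below 0.05. None of the 7 glial markers was at the floor in all libraries of any group, and they summed to 18670 to 32880 CPM in outer ONL, 20770 to 26080 in inner ONL, 1665 to 3911 in E16.5 nerve, 1420 to 1761 in trigeminal nerve, 4302 to 6732 in E13.5 ONL and 484 to 1069 in E13.5 nerve. All levels and differences are per library total, not per glial cell.

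Markers of glia and of other tissues moved with the groups. The 9 olfactory bulb and forebrain markers summed to 616 to 818 CPM in E13.5 ONL, 136 to 269 in inner ONL, 36.8 to 66.5 in outer ONL, 25.6 to 48.8 in E16.5 nerve and 44.5 to 97.7 in E13.5 nerve. The 7 mesenchyme markers summed to 7558 to 13350 CPM in E16.5 nerve, 4572 to 8965 in outer ONL, 759.6 to 1850 in inner ONL, 16580 to 20390 in trigeminal nerve, 2718 to 5318 in E13.5 nerve and 1373 to 3170 in E13.5 ONL. In outer ONL against E16.5 nerve, the counts of called markers were 5 higher and 0 lower of 7 for glia, 3 higher and 2 lower of 9 for bulb and forebrain, 0 higher and 4 lower of 7 for mesenchyme, 0 higher and 4 lower of 7 for olfactory epithelium, 0 higher and 4 lower of 5 for cartilage and bone, 0 higher and 3 lower of 4 for mural cells, 0 higher and 1 lower of 5 for endothelium and 0 higher and 1 lower of 4 for macrophages. In E13.5 ONL against E13.5 nerve, 5 glial markers were higher and 2 lower. Bulb and forebrain markers were 6 higher and 0 lower, mesenchyme 2 higher and 4 lower, and olfactory epithelium 0 higher and 6 lower. Cartilage and bone markers were 0 higher and 2 lower, mural cells 0 higher and 3 lower, endothelium 0 higher and 1 lower, and macrophages 0 higher and 0 lower. The part of glia and of these tissues in the differences given here was not tested.

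**Figure D1:**
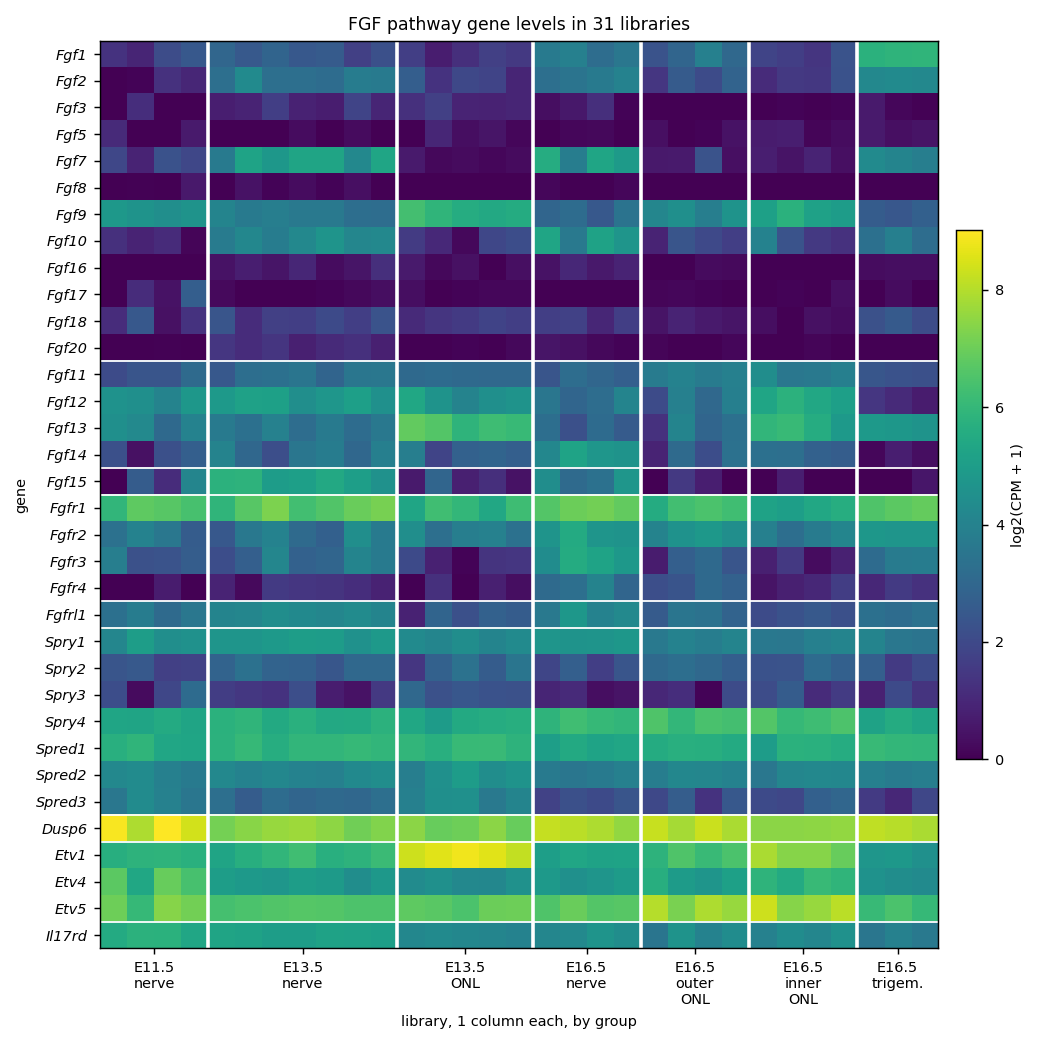
Levels of the 34 FGF pathway genes as log2(CPM + 1), 1 row per gene and 1 column per library, for 31 libraries arranged by group. Fgfr1 and Dusp6 are high in every group, Fgf8 is at or near 0 throughout, and Etv1 and Fgf13 have their highest group means in E13.5 ONL, at 294 to 458 and 56.9 to 115 CPM.

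The first question was how the nerve layer on the bulb differs from the nerve in the mucosa. In outer ONL, Fgf7, Fgf10, Fgf15, Fgfr1, Fgfr3, Fgfrl1 and Spry1 were lower than in E16.5 nerve, and Fgf9 and Etv1 were higher. The same 9 genes were called in the same directions in E13.5 ONL against E13.5 nerve, but none of the 9 was called there with the early libraries grouped by label. The share of all genes called in the same direction at both stages is not given here. At E16.5, 15 of 32 tested genes were called, 4 higher and 11 lower, beside 22% (10.2% higher and 11.8% lower) of all genes. At E13.5, 15 of 32 were called, 4 higher and 11 lower, beside 31.5% (15.4% higher and 16.1% lower) of all genes. The median difference over the tested FGF genes was -0.33 at E16.5 and -0.37 at E13.5, against 0.0130 and -0.0302 over all genes. With the early libraries grouped by label, 3 FGF genes were called at E13.5, beside 3421 of all 19332 genes. Of the 3 FGF genes, only Fgf20 was shared in the same direction, and Etv4 and Dusp6 were called by label alone. Under that grouping 4 of the 15 differences changed sign, Etv1 and Fgfr1 among them. The E16.5 calls of Fgf16, Fgfr1 and Etv1 were also lost under that grouping (adjusted p = 0.183, 0.0569 and 0.071). All libraries are in 1 fit, and the cause of these losses was not tested. The log2 differences of these 3 genes by label were -2.71, -0.73 and 1.07, the same as under the grouping used here. With the early libraries left out of the fit, all 48 calls between E16.5 groups that could be tested held. Some E16.5 calls could not be tested that way.

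**Figure D2:**
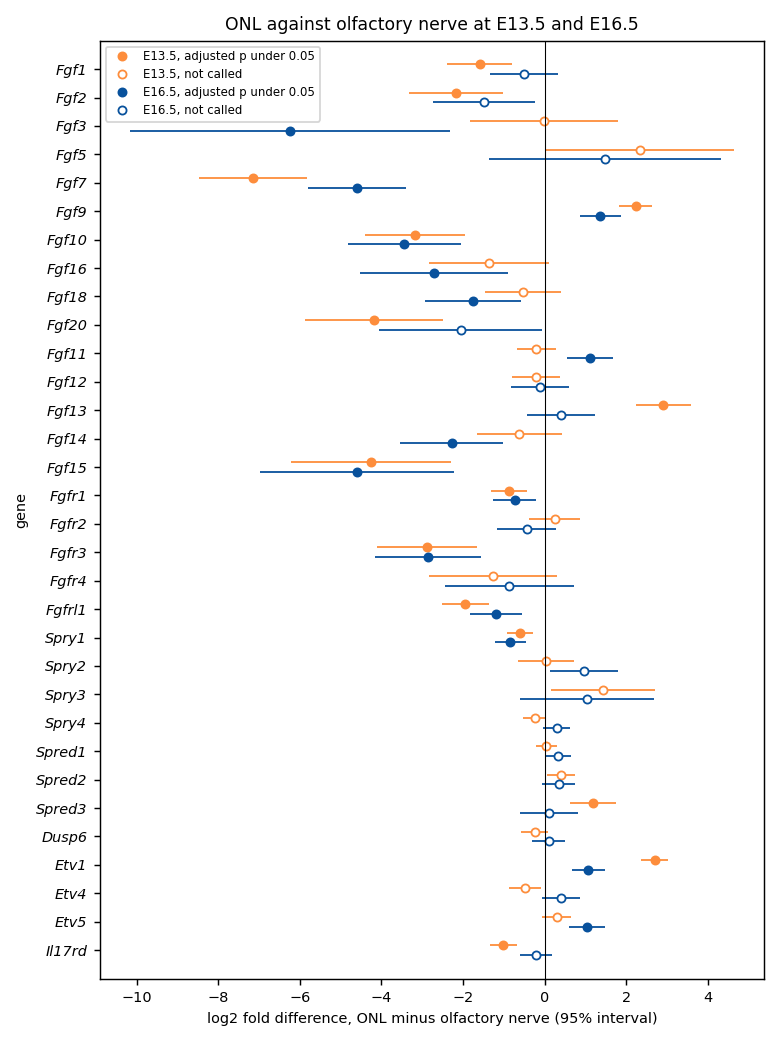
Fitted log2 difference between ONL and olfactory nerve with its 95% interval for the 32 tested genes, at E13.5 (orange) and E16.5 (blue, outer ONL); filled points passed an adjusted p of 0.05 and open points did not. Fgf7 lies farthest left at E13.5, at -7.15, and Etv1 and Fgf9 lie right of 0 with filled points at both stages. Fgf3 had no count in outer ONL, so its E16.5 point depends on the prior count and is no bound.

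Fgf7 and Fgf10, which signal from mesenchyme to epithelium through the same splice form of Fgfr2 in many organs, were abundant in the nerve and scarce in the ONL. Fgf7 (ENSMUSG00000027208, chr2:126034658-126091185, GRCm38) was at 47.0, 13.3, 38.7 and 28.9 CPM in E16.5 nerve and 0.537, 0.565, 3.91 and 0.305 in outer ONL. The groups did not overlap, and replicate 3 stood above the rest of the outer ONL. The difference was -4.60 (SE 0.58, adjusted p = 5.27e-07). Inner ONL held 0.301 to 0.864 CPM and trigeminal nerve 13.4 to 19.1.

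In E13.5 nerve, Fgf7 ran from 12.3 through a median of 36.2 to 38.5 CPM, and the gene was at 0.553, 0.144, 0.195, 0.104 and 0.215 in E13.5 ONL. These ONL levels rest on 1 to 6 counts per library, with 4 of 5 at or under the floor, and no ONL library came near the nerve. The difference was -7.15 (SE 0.64, adjusted p = 4.21e-10; by label -1.32, adjusted p = 0.237). E11.5 nerve was at 2.81, 0.869, 3.78 and 2.78 CPM.

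Fgf10 (ENSMUSG00000021732, chr13:118669791-118792115) was at 38.2, 11.6, 35.8 and 25.2 CPM in E16.5 nerve and 0.844, 4.15, 2.99 and 2.20 in outer ONL (-3.44, SE 0.67, adjusted p = 3.10e-04). Nerve replicate 2, the lowest in Fgf7, was also the lowest in Fgf10. At E13.5 it ran from 12.6 through a median of 17.2 to 24.4 CPM in nerve and was at 1.94, 1.08, 0.130, 2.80 and 3.33 in ONL (-3.18, SE 0.60, adjusted p = 9.48e-05; by label -1.86, adjusted p = 0.0974). The groups did not overlap at either stage. Inner ONL held 15, 3.99, 1.81 and 1.45, with replicate 1 above the rest. The antisense gene Gm16263 overlaps exons of Fgf10, and without strand information the reads of both cannot be told apart.

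**Figure D3:**
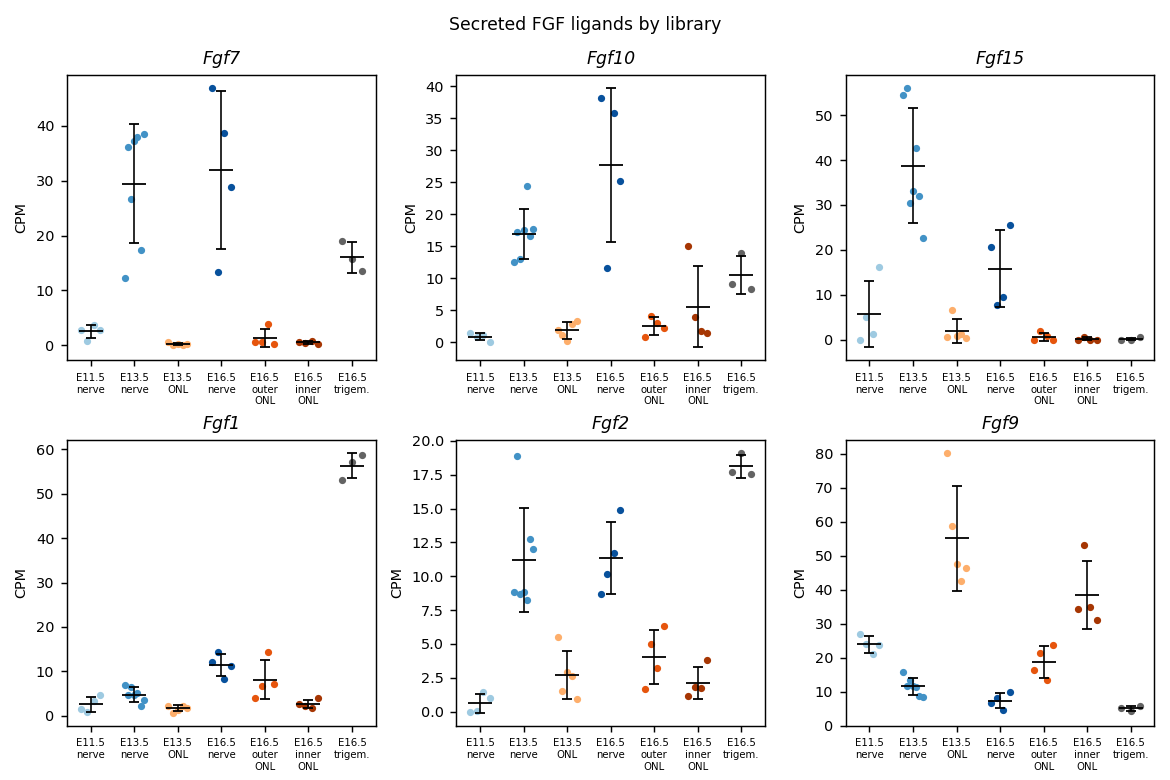
CPM of 6 secreted FGF ligands by group, with each point a library, the bar the mean and the whiskers 1 SD. Fgf7, Fgf10 and Fgf15 are high in E13.5 and E16.5 nerve and low in ONL, Fgf1 is highest in trigeminal nerve, at 53.1 to 58.7 CPM, and Fgf9 has its highest mean in E13.5 ONL, with libraries at 42.6 to 80.2 CPM.

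Fgf15 (ENSMUSG00000031073, chr7:144896531-144900953), a gut hormone in the adult, was abundant in olfactory nerve. The E16.5 nerve libraries were at 20.7, 7.67, 9.43 and 25.5 CPM and outer ONL at 0, 1.82, 0.712 and 0 (-4.60, SE 1.15, adjusted p = 3.74e-03). Trigeminal nerve held 0, 0 and 0.478 CPM, and olfactory nerve exceeded it by 6.59 (SE 1.47, adjusted p = 1.10e-03). At E13.5 it ran from 22.6 through a median of 33.1 to 56.1 CPM in nerve and was at 0.553, 6.70, 0.715, 1.35 and 0.358 in ONL (-4.26, SE 0.95, adjusted p = 7.28e-04; by label -1.99, adjusted p = 0.169). None of these pairs of groups overlapped. The 7 olfactory epithelium markers were likewise higher in nerve, summing to 89.4 to 164 CPM in E16.5 nerve, 27.3 to 35.0 in outer ONL, 7.46 to 10.2 in trigeminal nerve, 57.5 to 109 in E13.5 nerve and 4.15 to 10.01 in E13.5 ONL, where Cnga2 and Krt5 were at the floor in each library. Their part in the Fgf15 result was not tested. The antisense genes Gm26793 and Gm39119 overlap Fgf15 exons.

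Fgf3, Fgf16, Fgf18 and Fgf20 were rare, below 5 CPM in every library. Fgf3 had no count in any outer ONL library and was at 0.247, 0.495, 1.30 and 0.0554 CPM in E16.5 nerve, so it was at least 2.72-fold lower in outer ONL against 3 counts per library (adjusted p = 0.0174). That call was lost without E16.5 nerve replicate 3 (adjusted p = 0.0641). Fgf16 was at 0, 0, 0.213 and 0.183 CPM in outer ONL, at or under the floor in each library, and 0.371, 0.990, 0.520 and 0.886 in nerve, at least 3.59-fold lower (adjusted p = 0.0274). That call was lost without E16.5 nerve replicate 2 or 4, or else outer ONL replicate 1 or 2 (adjusted p = 0.0546 to 0.0813). Fgf18, known for its part in bone growth, was at 0.384, 0.879, 0.569 and 0.427 CPM in outer ONL and 2.17, 2.35, 0.975 and 2.21 in nerve (-1.75, SE 0.57, adjusted p = 0.0262), and its call was lost without E16.5 nerve replicate 1, 2 or 4, or else outer ONL replicate 1, 3 or 4 (difference -1.75 to -1.63, adjusted p = 0.052 to 0.0783). Nerve and outer ONL did not overlap in these 3 genes, but nerve replicate 4 held only 1 count of Fgf3, which is below the floor.

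Fgf20 was higher in nerve than in ONL at E13.5. Nerve ran from 0.730 through a median of 1.21 to 1.70 CPM and ONL held 0, 0, 0.0650, 0 and 0.143, with 4 of 5 at or under the floor (adjusted p = 1.83e-04; by label -3.18, adjusted p = 0.0341). It was the 1 FGF gene called in the same direction under both groupings in this comparison. All 4 E11.5 libraries were at or under the floor, so E13.5 nerve was at least 12.2-fold higher (adjusted p = 1.06e-05; by label 5.27, adjusted p = 0.0145). Exons of Micu3 overlap Fgf20 on the opposite strand.

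Fgf1 and Fgf2, the acidic and basic FGFs, lack a classical signal peptide. Fgf1 had its highest group mean in trigeminal nerve, at 53.1, 57.3 and 58.7 CPM against 12.00, 14.3, 8.32 and 11.1 in E16.5 olfactory nerve (-2.30, SE 0.43, adjusted p = 1.46e-04). It was also lower in outer ONL than in trigeminal nerve (-2.81, SE 0.44, adjusted p = 9.89e-06). Within the ONL, the outer layer held 3.99, 6.72, 14.3 and 7.20 CPM and the inner layer 2.62, 2.18, 1.65 and 3.92, without overlap (-1.62, SE 0.42, adjusted p = 7.28e-03), a call lost without outer ONL replicate 3 (difference -1.20, adjusted p = 0.0672). The E13.5 ONL was at 2.21, 0.648, 1.30, 2.28 and 1.79 CPM and nerve ran from 2.24 through a median of 4.68 to 6.84, groups that overlapped slightly (-1.59, SE 0.38, adjusted p = 1.62e-03; by label -0.71, adjusted p = 0.192).

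Fgf2 likewise had its highest group mean in trigeminal nerve, at 17.7, 19.1 and 17.5 CPM, against 1.69, 4.96, 3.20 and 6.29 in outer ONL (-2.16, SE 0.65, adjusted p = 0.0125), a call lost with the early libraries grouped by label (adjusted p = 0.127). E16.5 olfactory nerve, at 8.72, 10.2, 11.7 and 14.9, lay above every outer ONL library, yet the difference did not pass (-1.49, SE 0.61, adjusted p = 0.0804). It passed with these groups fitted alone and the replicate number, which was taken to pair them, as a block (-1.62, SE 0.29, adjusted p = 4.34e-03). E13.5 ONL held 5.53, 1.51, 2.93, 2.60 and 0.896 CPM, below nerve at 8.22 through a median of 8.84 to 18.9 (-2.17, SE 0.56, adjusted p = 2.88e-03; by label -1.79, adjusted p = 0.122). Nudt6 overlaps Fgf2 exons on the opposite strand and Gm43439 on the same strand, so its counts are uncertain.

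Fgf9 (ENSMUSG00000021974, chr14:58070547-58112720), a ligand expressed by neurons among other cells, was the 1 secreted ligand called higher in the ONL than in nerve, and this at both stages. E16.5 nerve was at 6.75, 8.04, 4.62 and 9.86 CPM, outer ONL at 16.49, 21.4, 13.52 and 23.9 and inner ONL at 34.2, 53.1, 34.9 and 31.1, with no overlap from one to the next. Outer ONL exceeded nerve by 1.36 (SE 0.24, adjusted p = 9.08e-05) and inner exceeded outer ONL by 1.02 (SE 0.24, adjusted p = 2.51e-03), the latter lost with the early libraries grouped by label (adjusted p = 0.113). The E13.5 ONL held 80.2, 58.8, 47.4, 42.6 and 46.4 CPM and nerve ran from 8.37 through a median of 11.7 to 15.7 (2.24, SE 0.20, adjusted p = 2.49e-10; by label 0.29, adjusted p = 0.568). Trigeminal nerve was at 5.16, 4.44 and 5.84. E13.5 ONL and inner ONL had the highest group means of Fgf9 and the highest sums of bulb and forebrain markers, whose part was not tested.

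The FGF homologous factors stay inside cells, where they bind voltage-gated sodium channels, and do not act as secreted ligands. Fgf13 was at 115, 96.6, 56.9, 73.9 and 66.8 CPM in E13.5 ONL and ran from 8.18 through a median of 11.1 to 14.6 in nerve (2.91, SE 0.33, adjusted p = 2.90e-08; by label -0.37, adjusted p = 0.615). At E16.5 inner ONL held 60.2, 67.0, 47.5 and 28.1 CPM and outer ONL 1.46, 15.6, 6.76 and 9.16 (2.61, SE 0.41, adjusted p = 3.14e-05). Neither pair overlapped, whereas outer ONL overlapped E16.5 nerve at 8.60, 3.59, 8.00 and 5.09.

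Fgf12 was also higher in the inner layer, at 38.9, 54.5, 42.0 and 33.2 CPM against 3.15, 14.4, 7.19 and 13.9 in the outer layer (2.12, SE 0.35, adjusted p = 6.42e-05). Trigeminal nerve, at 1.66, 1.12 and 0.625, lay below every olfactory library, and E16.5 olfactory nerve, at 10.7, 6.68, 8.45 and 15.8, exceeded it by 3.19 (SE 0.43, adjusted p = 1.55e-06). Fgf14 separated the 2 nerves further, at 17.1, 36.9, 25.9 and 23.9 CPM in olfactory and 0.108, 0.685 and 0.257 in trigeminal nerve (6.18, SE 0.86, adjusted p = 2.24e-06). Outer ONL was lower than olfactory nerve, at 0.844, 7.60, 3.42 and 9.40 (-2.28, SE 0.61, adjusted p = 6.49e-03). Gm28932 overlaps Fgf14 exons on the opposite strand.

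Fgf11 was at 12.4, 14.9, 12.6 and 14.3 CPM in outer ONL and 4.21, 8.42, 6.83 and 5.65 in E16.5 nerve (1.11, SE 0.28, adjusted p = 3.42e-03), without overlap. E13.5 ONL held 7.47, 7.99, 7.41, 7.37 and 7.31 CPM, inside the range of the nerve, 4.56 through a median of 9.09 to 10.9, and the gene was not called.

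Among the receptors, Fgfr1 (ENSMUSG00000031565, chr8:25513654-25575718) had the highest level per kilobase of exon in each of the 7 groups, from 3.98 ± 0.704 CPM per kb (SD, n = 4) in inner ONL to 12.1 ± 1.70 CPM per kb (SD, n = 4) in E16.5 nerve. Fgfr1 was at 45.6, 78.2, 86.7 and 75.4 CPM in outer ONL and 97.3, 127, 136 and 115 in nerve, without overlap (-0.73, SE 0.25, adjusted p = 0.0337). That call was lost without E16.5 nerve replicate 2 or 3, or else outer ONL replicate 1 or 4 (difference -0.76 to -0.59, adjusted p = 0.0551 to 0.131). Inner ONL, at 35.8, 32.0, 41.2 and 48.0, was lower than outer ONL but overlapped its replicate 1 (-0.86, SE 0.25, adjusted p = 0.0184), a call lost without inner ONL replicate 1 or 2, or else outer ONL replicate 3 (difference -0.82 to -0.76, adjusted p = 0.0563 to 0.0713). In E13.5 ONL it was at 38.5, 75.4, 62.3, 41.2 and 72.8 CPM and nerve ran from 59.6 through a median of 101 to 152, with overlap (-0.88, SE 0.21, adjusted p = 1.63e-03; by label 0.04, adjusted p = 0.930). Gm16159 overlaps Fgfr1 exons on the opposite strand.

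Fgfr3 (ENSMUSG00000054252, chr5:33721674-33737068), a receptor prominent in cartilage and in astrocytes, was at 20.2, 45.5, 36.7 and 27.4 CPM in E16.5 nerve, 0.614, 5.59, 7.54 and 4.15 in outer ONL and 0.740, 1.81, 0.235 and 0.784 in inner ONL. Outer ONL was lower than nerve without overlap (-2.85, SE 0.63, adjusted p = 1.13e-03). Inner ONL was lower than outer ONL (-2.32, SE 0.68, adjusted p = 0.0181) but overlapped its replicate 1, and the call was lost without inner ONL replicate 1 or 3, or else outer ONL replicate 3 (difference -2.24 to -1.96, adjusted p = 0.0556 to 0.0765) and with the early libraries grouped by label (adjusted p = 0.0528). At E13.5 the ONL held 3.04, 0.792, 0.0650, 1.56 and 1.72 CPM and nerve ran from 3.39 through a median of 6.74 to 16.7 (-2.89, SE 0.60, adjusted p = 2.93e-04; by label -0.07, adjusted p = 0.948). The 5 cartilage and bone markers summed to 780.1 to 4524 CPM in E16.5 nerve, 295 to 865 in outer ONL, 193 to 333 in inner ONL, 168 to 193 in trigeminal nerve and 85.0 to 499 in E13.5 nerve. In trigeminal nerve Fgfr3 was at 7.93 to 12.8 CPM, above every outer ONL library. The part of these markers in the Fgfr3 levels was not tested. G630022F23Rik overlaps Fgfr3 exons on the opposite strand.

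Fgfrl1 (ENSMUSG00000008090, chr5:108692382-108706924), which binds FGFs without a kinase domain, was at 11.6, 26.7, 14.8 and 17.9 CPM in E16.5 nerve, 4.99, 10.3, 9.46 and 6.35 in outer ONL and 3.16, 3.84, 4.79 and 3.62 in inner ONL, with no overlap from one to the next. Outer ONL was lower than nerve (-1.19, SE 0.31, adjusted p = 5.34e-03). Inner was lower than outer ONL (-1.02, SE 0.32, adjusted p = 0.0287), a call lost without inner ONL replicate 1, 2 or 4, or else outer ONL replicate 2 or 3 (difference -1.04 to -0.85, adjusted p = 0.0607 to 0.106) and with the early libraries grouped by label (adjusted p = 0.115). In E13.5 ONL Fgfrl1 was at 0.830, 6.55, 3.58, 5.92 and 5.23 CPM and nerve ran from 15.9 through a median of 16.6 to 20.5 (-1.94, SE 0.28, adjusted p = 1.63e-06; by label -0.51, adjusted p = 0.267).

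Fgfr2 and Fgfr4 were not called between ONL and nerve and changed with age in the nerve. With outer ONL and E16.5 nerve fitted alone and the replicate number as a block, Fgfr4 was called lower in outer ONL (-0.87, SE 0.25, adjusted p = 0.032). In the fit of all groups without a block it was not (-0.86, SE 0.76, adjusted p = 0.483). The parts of the block and of the smaller set of libraries were not told apart. Fgfr2 was at 24.5, 44.4, 24.96 and 23.98 CPM in E16.5 nerve and ran from 4.62 through a median of 11.3 to 21.1 in E13.5 nerve, without overlap (1.41, SE 0.31, adjusted p = 9.51e-04; by label 1.47, adjusted p = 1.05e-03). Fgfr4 was at 6.70 to 15.2 CPM in E16.5 nerve and 0.173 to 1.89 in E13.5 nerve (2.98, SE 0.68, adjusted p = 1.40e-03; by label 3.10, adjusted p = 5.13e-03). Outer ONL held more Fgfr4 than E13.5 ONL, 3.53 to 7.54 against 0 to 1.37 CPM (3.39, SE 0.83, adjusted p = 1.35e-03; by label 4.39, adjusted p = 8.99e-04). Annotated exons of Fgfr2 overlap those of Ctbp2 on the same strand, which leaves its counts uncertain.

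**Figure D4:**
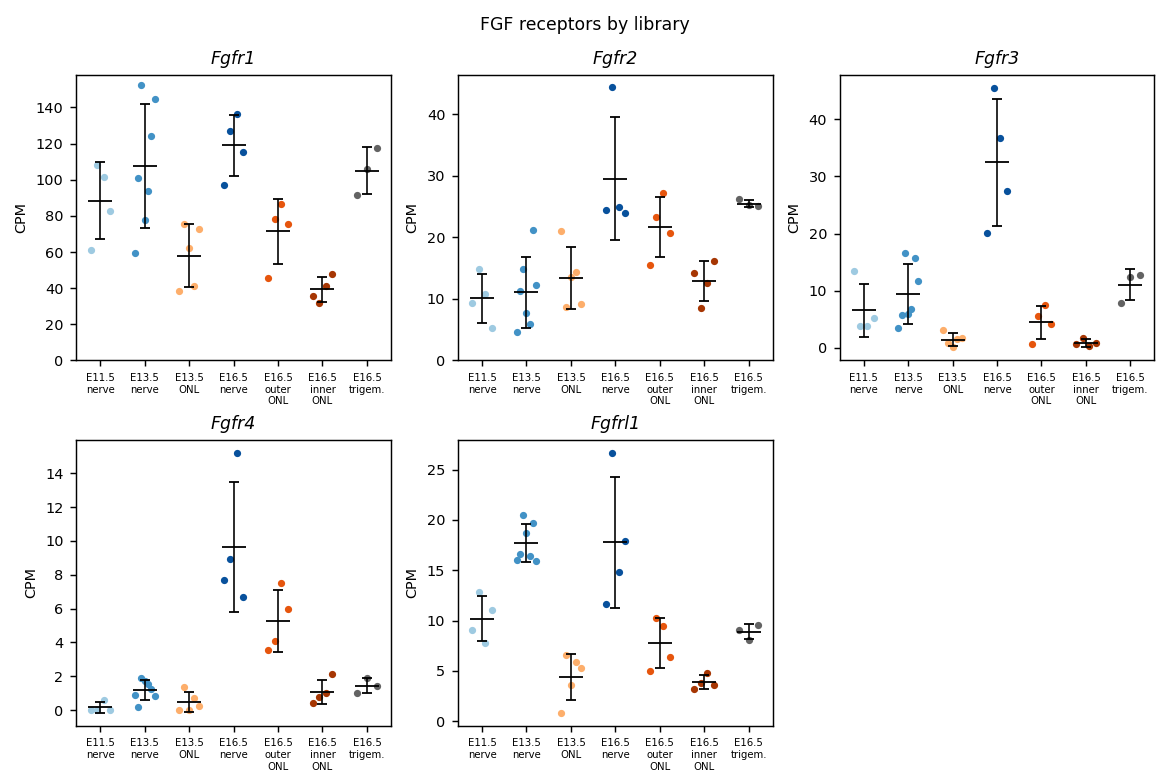
CPM of the 4 FGF receptor kinases and Fgfrl1 by group, with each point a library, the bar the mean and the whiskers 1 SD. Fgfr3 is highest in E16.5 nerve, at 20.2 to 45.5 CPM, and Fgfr2 and Fgfr4 are higher in E16.5 nerve, at 23.98 to 44.4 and 6.70 to 15.2 CPM, than in E13.5 nerve.

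The 250 bases before the start of 4 genes are shown because Fgf7, Fgf10 and Fgfrl1 were lower and Fgf9 higher in the ONL at both stages. They are RefSeq sequences on GRCm38.p6, read 5′ to 3′ on the strand of the gene, and none of the windows contains an exon base of the GENCODE annotation. The windows of Fgf9, Fgf10 and Fgfrl1 lie downstream of the earliest start GENCODE gives these genes. Capitals mark CCGGAA, a form of the core that ETS factors such as Etv1, Etv4 and Etv5 bind, searched on both strands.
Fgf7, chr2:126034408-126034657, + strand: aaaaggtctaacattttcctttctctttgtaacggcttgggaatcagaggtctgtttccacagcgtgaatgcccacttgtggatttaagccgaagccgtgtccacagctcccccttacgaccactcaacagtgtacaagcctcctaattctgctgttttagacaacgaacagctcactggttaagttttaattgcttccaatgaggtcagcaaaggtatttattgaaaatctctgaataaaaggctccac
Fgf10, chr13:118714449-118714698, + strand: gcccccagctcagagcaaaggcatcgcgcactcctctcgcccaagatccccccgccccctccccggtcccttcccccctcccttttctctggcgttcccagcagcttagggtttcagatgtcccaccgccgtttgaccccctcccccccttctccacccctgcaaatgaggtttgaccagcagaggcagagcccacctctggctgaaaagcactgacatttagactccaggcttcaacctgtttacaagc
Fgfrl1, chr5:108693979-108694228, + strand: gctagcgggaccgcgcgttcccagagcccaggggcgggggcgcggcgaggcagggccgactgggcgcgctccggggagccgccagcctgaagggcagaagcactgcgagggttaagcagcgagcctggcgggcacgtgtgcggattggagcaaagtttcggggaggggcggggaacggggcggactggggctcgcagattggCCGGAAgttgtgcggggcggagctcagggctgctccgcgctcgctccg
Fgf9, chr14:58072436-58072685, + strand: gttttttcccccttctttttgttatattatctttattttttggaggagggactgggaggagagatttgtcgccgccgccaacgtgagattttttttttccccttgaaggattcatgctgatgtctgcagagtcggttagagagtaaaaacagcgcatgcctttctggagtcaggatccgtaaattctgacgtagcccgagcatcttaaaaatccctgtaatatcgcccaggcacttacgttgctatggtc
The motif occurred once, in Fgfrl1, 48 bases before the start. Etv1 was also higher in the ONL at both stages but is not shown, and its promoters held no match. RefSeq promoters were matched for 24 of the 34 genes, with 33 promoters, of which 4 held a match (Fgf5, Fgf12, Fgfr4 and Fgfrl1). That is 12.1%, beside 12.0% of 32851 mouse promoters. A match describes the letters and is not a binding site.

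The feedback and target genes did not move together between ONL and nerve. Etv1 (ENSMUSG00000004151, chr12:38779380-38870484), an ETS factor also known from subsets of neurons, was at 32.5, 39.2, 35.8 and 36.7 CPM in E16.5 nerve, 55.4, 91.3, 69.0 and 87.5 in outer ONL and 236, 168, 164 and 119.8 in inner ONL, with no overlap from one to the next. Outer ONL exceeded nerve by 1.07 (SE 0.19, adjusted p = 1.15e-04) and inner exceeded outer ONL by 1.18 (SE 0.19, adjusted p = 5.38e-05), both calls lost with the early libraries grouped by label (adjusted p = 0.071 and 0.0686). E13.5 ONL held 324, 393, 458, 394 and 294 CPM and nerve ran from 37.3 through a median of 56.4 to 75.5 (2.70, SE 0.16, adjusted p = 1.58e-13; by label -0.65, adjusted p = 0.177), so the direction at E13.5 depends on the grouping. E13.5 ONL and inner ONL had the highest group means of Etv1 as of Fgf9.

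Etv5, which FGF induces together with Etv4, was at 259.8, 147, 240.1 and 198 CPM in outer ONL and 91.8, 123, 96.5 and 102 in E16.5 nerve, without overlap (1.03, SE 0.21, adjusted p = 5.87e-04). Inner ONL, at 323, 164, 195 and 268, was not called against outer ONL. At E13.5 Etv5 was not called, with 109.6, 105, 88.5, 127 and 129 CPM in ONL and 80.8 through a median of 90.8 to 98.2 in nerve. Etv4 was called between ONL and nerve at neither stage, but at E13.5 it was called higher in ONL with the early libraries grouped by label (-0.49, SE 0.19, adjusted p = 0.0514; by label 1.49, adjusted p = 2.44e-04). Inner ONL, at 57.8, 44.6, 66.3 and 58.6 CPM, exceeded outer ONL, at 49.0, 30.2, 25.3 and 33.6, with overlap through outer replicate 1 (0.72, SE 0.23, adjusted p = 0.0282), a call lost without inner ONL replicate 1, 3 or 4, or else outer ONL replicate 2, 3 or 4 (difference 0.60 to 0.71, adjusted p = 0.0538 to 0.119) and with the early libraries grouped by label (adjusted p = 0.138).

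Dusp6, a phosphatase that inactivates ERK, was at 309.8, 221, 311 and 232 CPM in outer ONL and 302, 271, 241 and 188 in E16.5 nerve, and the 95% interval of the difference ran from -0.30 to 0.50. At E13.5 it was called higher in ONL than in nerve by label alone (-0.24, SE 0.16, adjusted p = 0.293; by label 1.10, adjusted p = 8.89e-04). Inner ONL, at 172, 175, 177 and 186, lay below every outer ONL library (-0.60, SE 0.19, adjusted p = 0.0353), a call lost without inner ONL replicate 1, 2, 3 or 4, or else outer ONL replicate 1 or 3 (difference -0.62 to -0.52, adjusted p = 0.053 to 0.119) and with the early libraries grouped by label (adjusted p = 0.151).

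Spry1 was the 1 Sprouty gene called between ONL and nerve. Outer ONL held 11.6, 14.9, 13.3 and 15.9 CPM and E16.5 nerve 25.3, 23.8, 24.4 and 26.5 (-0.84, SE 0.18, adjusted p = 1.03e-03). The gene was at 18.8, 16.2, 20.5, 15.8 and 18.9 CPM in E13.5 ONL, where nerve ran from 22.6 through a median of 27.7 to 31.6 (-0.60, SE 0.16, adjusted p = 2.87e-03; by label -0.13, adjusted p = 0.618). Neither pair overlapped. Gm42922 overlaps Spry1 exons on the opposite strand.

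Il17rd, a membrane inhibitor of FGF signalling also named Sef, was at 17.2, 18.7, 16.97, 16.4 and 15.1 CPM in E13.5 ONL and ran from 31.4 through a median of 34.5 to 37.4 in nerve (-1.01, SE 0.16, adjusted p = 1.02e-05; by label 0.51, adjusted p = 0.0672). At E16.5 outer ONL, at 10.4, 23.7, 14.9 and 19.7, and nerve, at 16.8, 18.01, 24.4 and 20.3, overlapped. Spred3 was at 14.1, 21.5, 21.98, 11.52 and 15.8 CPM in E13.5 ONL and ran from 5.20 through a median of 7.48 to 8.88 in nerve (1.19, SE 0.28, adjusted p = 1.16e-03; by label 0.61, adjusted p = 0.177). Exons of Ggn overlap Spred3 on the opposite strand.

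**Figure D5:**
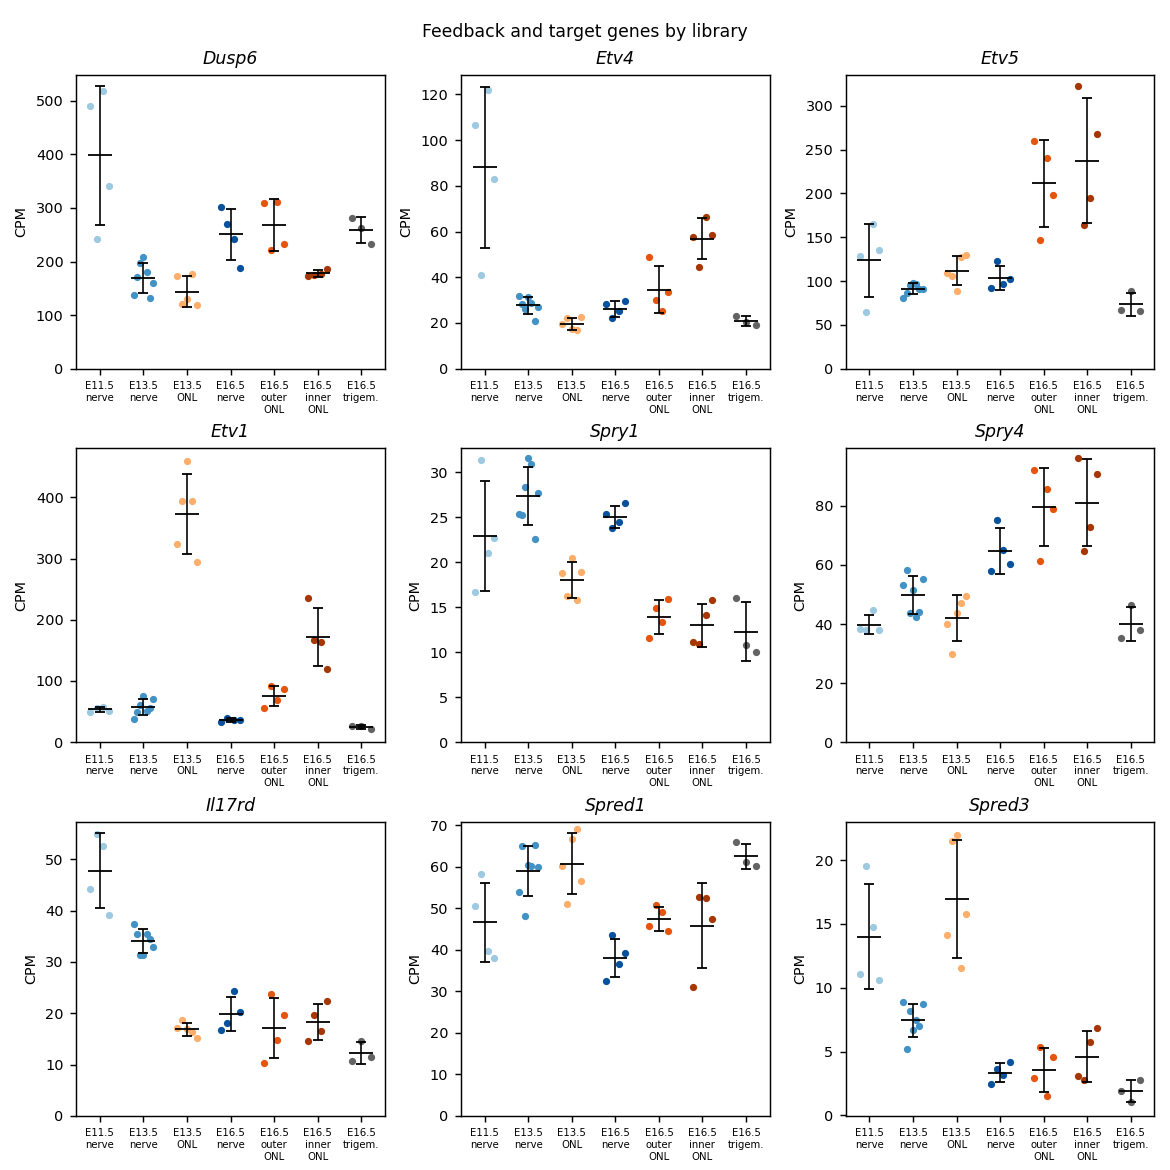
CPM of 9 feedback and target genes by group, with each point a library, the bar the mean and the whiskers 1 SD. Etv1 is highest in E13.5 ONL at 294 to 458 CPM, and Etv4 has its highest mean in E11.5 nerve, with libraries at 41.0 to 122 CPM.

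Between the layers of the E16.5 ONL, 10 of 32 FGF genes were called, 5 higher and 5 lower in the inner layer, beside 14.1% (8.2% higher and 5.94% lower) of all genes. Of these, those higher were Fgf9, Fgf12, Fgf13, Etv1 and Etv4, and those lower were Fgf1, Fgfr1, Fgfr3, Fgfrl1 and Dusp6. The count was 4 without outer ONL replicate 3, 5 without inner ONL replicate 1, and 4 with the early libraries grouped by label. Over all genes these fits called 2055 of 19329, 2184 of 19318 and 1658 of 19332. Mesenchyme markers were 0 higher and 7 lower of 7 in the same comparison, and bulb and forebrain markers 5 higher and 0 lower of 9. Outer and inner name pieces cut by position, so these are not differences between separated types of ensheathing cell.

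Outer ONL and trigeminal nerve differed in 14 of 32 FGF genes, 8 higher and 6 lower in outer ONL, beside 25.8% of all genes. The lowest adjusted p-values were those of Etv1, at 25.9, 27.2 and 22.1 CPM in trigeminal nerve (1.60, SE 0.22, adjusted p = 1.15e-06), Fgf12 (3.08, SE 0.43, adjusted p = 1.91e-06) and Fgf9 (1.87, SE 0.27, adjusted p = 3.15e-06). Etv4 and Etv5 were higher as well, and the calls of Etv4 and Fgf10 were lost, for Etv4 without trigeminal nerve replicate 2 or 3, or else outer ONL replicate 1 (difference 0.53 to 0.71, adjusted p = 0.0800 to 0.124) and for Fgf10 without trigeminal nerve replicate 2, or else outer ONL replicate 1 or 4 (difference -1.96 to -1.73, adjusted p = 0.0621 to 0.0924). With the early libraries grouped by label, the calls of Fgf2, Fgf10, Fgf13 and Etv4 were lost (adjusted p = 0.127, 0.151, 0.0505 and 0.109).

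Olfactory and trigeminal nerve differed in 12 of 32, 9 higher and 3 lower in olfactory nerve, beside 23.6% (13% higher and 10.6% lower) of all genes, with Fgf12, Fgf14 and Fgf1 at the lowest adjusted p. In this comparison the call of Fgfr4 was lost without E16.5 nerve replicate 3, or else trigeminal nerve replicate 1, 2 or 3 (difference 2.44 to 2.99, adjusted p = 0.056 to 0.103), that of Fgfrl1 without E16.5 nerve replicate 2 or 4, or else trigeminal nerve replicate 1, 2 or 3 (difference 0.73 to 1.06, adjusted p = 0.0538 to 0.134) and that of Il17rd without E16.5 nerve replicate 3, or else trigeminal nerve replicate 1 or 3 (difference 0.60 to 0.67, adjusted p = 0.0515 to 0.0741). The same 3 calls were lost with the early libraries grouped by label (adjusted p = 0.0737, 0.101 and 0.0642). The comparisons share libraries and are not independent of one another.

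The second question was how these genes changed with age. In the nerve from E11.5 to E13.5, 16 of 32 genes were called, 11 higher and 5 lower at E13.5, beside 36.6% (20.2% higher and 16.4% lower) of all genes. The ligands Fgf2, Fgf7, Fgf10, Fgf15, Fgf16 and Fgf20 were higher and Fgf9 was lower. Markers of other tissues moved in the same comparison, with 6 higher and 0 lower of 7 for olfactory epithelium, 6 higher and 1 lower of 7 for mesenchyme, 5 higher and 0 lower of 5 for endothelium and 3 higher and 0 lower of 4 for mural cells. Their summed levels were 8.96 to 24.4, 1517 to 2231, 15.3 to 96.9 and 101 to 141 CPM at E11.5 and 57.5 to 109, 2718 to 5318, 211 to 324 and 166 to 300.1 at E13.5, and their part was not tested. By label 14 genes were called, 7 of them shared in the same direction, 1 called in the opposite direction and 6 called by label alone (Fgf1, Fgfr1, Fgfr3 and Spry1 higher, Fgf13 and Etv1 lower). Over all genes, 3380 of 19332 were called by label. Etv4 was at 107, 41.0, 122 and 83.0 CPM at E11.5 and ran from 20.7 through a median of 28.2 to 31.7 at E13.5 (-1.67, SE 0.19, adjusted p = 8.52e-08; by label 0.51, adjusted p = 0.200). Dusp6 was at 491, 243, 519 and 341 CPM at E11.5 and ran from 133 through a median of 171 to 209 at E13.5 (-1.23, SE 0.17, adjusted p = 1.16e-06; by label 0.13, adjusted p = 0.756). The library labelled E13.5 ONL replicate 3 was the lowest E11.5 library in both genes, and the stages overlapped in neither.

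Il17rd was at 44.2, 55.0, 52.7 and 39.2 CPM at E11.5, above E13.5 nerve (-0.49, SE 0.16, adjusted p = 0.0196), but it was called in the opposite direction under the other grouping (by label 0.86, adjusted p = 7.46e-03), and the call was lost without the library labelled E13.5 olfactory nerve replicate 4 or 5, or else the library labelled E13.5 ONL replicate 3 or 4 (difference -0.44 to -0.41, adjusted p = 0.0629 to 0.0718). Fgf7 was higher at E13.5 (3.53, SE 0.51, adjusted p = 3.14e-06; by label 6.89, adjusted p = 7.08e-04), as were Fgf10 (4.26, SE 0.68, adjusted p = 1.24e-05; by label 3.41, adjusted p = 0.0169) and Fgf2 (4.24, SE 0.67, adjusted p = 1.12e-05; by label 1.66, adjusted p = 0.218). Fgf16 had no count in any E11.5 library and was at least 6.35-fold higher at E13.5 (adjusted p = 3.76e-05; by label 1.05, adjusted p = 0.621). The calls of Fgf14, Spred3, Fgf15, Fgfrl1 and Spry2 each depended on single libraries. That of Fgf14 was lost without the library labelled E13.5 ONL replicate 3 (difference 1.22, adjusted p = 0.0656), that of Spred3 without the library labelled E13.5 ONL replicate 3 (difference -0.70, adjusted p = 0.0819), that of Fgf15 without the library labelled E13.5 ONL replicate 4 (difference 2.45, adjusted p = 0.0622), that of Fgfrl1 without the library labelled E13.5 ONL replicate 2 or 4 (difference 0.69 to 0.74, adjusted p = 0.0612 to 0.0858) and that of Spry2 without the library labelled E13.5 olfactory nerve replicate 3 or 7, or else the library labelled E13.5 ONL replicate 1, 4 or 5 (difference 0.81 to 0.95, adjusted p = 0.0515 to 0.117).

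From E13.5 to E16.5 in the nerve, 14 of 32 genes were called, 7 in each direction, beside 28.8% (15.2% higher and 13.6% lower) of all genes, and 13 of the 14 were also called in the same direction by label. Fgf13 was called lower by label alone. The groupings share most libraries here and differ only in those labelled E13.5 olfactory nerve replicate 1 and E13.5 ONL replicate 1. The marker counts were 5 higher and 0 lower of 7 for glia, 5 higher and 2 lower of 7 for mesenchyme, 4 higher and 0 lower of 5 for cartilage and bone and 4 higher and 0 lower of 4 for mural cells. Among the receptors, 3 were higher at E16.5, namely Fgfr2, Fgfr4 and Fgfr3 (1.77, SE 0.51, adjusted p = 8.63e-03; by label 2.02, adjusted p = 0.0117). Il17rd was lower (-0.78, SE 0.17, adjusted p = 9.99e-04; by label -0.66, adjusted p = 0.0246), as was Fgf12 (-1.45, SE 0.32, adjusted p = 9.88e-04; by label -1.46, adjusted p = 1.65e-03). Dusp6 was higher (0.56, SE 0.17, adjusted p = 0.0123; by label 0.61, adjusted p = 0.0367), a call lost without E16.5 nerve replicate 1 (difference 0.46, adjusted p = 0.0696). The call of Fgf9 was lost without the library labelled E13.5 olfactory nerve replicate 2 or 4, or else E16.5 nerve replicate 1 or 3 (difference -0.62 to -0.43, adjusted p = 0.0507 to 0.177), that of Fgf14 without the library labelled E13.5 olfactory nerve replicate 3, 4, 5 or 7, or else E16.5 nerve replicate 2 or 3 (difference 1.14 to 1.41, adjusted p = 0.0511 to 0.137), that of Fgf20 without E16.5 nerve replicate 3 or 4 (difference -2.12 to -1.98, adjusted p = 0.0644 to 0.0679) and that of Spry4 without the library labelled E13.5 olfactory nerve replicate 4, 6 or 7, or else E16.5 nerve replicate 2 (difference 0.30 to 0.37, adjusted p = 0.0563 to 0.164).

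In the ONL, E16.5 outer ONL was compared with E13.5 ONL, taken whole. There 18 of 32 genes were called, 10 higher and 8 lower at E16.5, beside 41.9% (21.9% higher and 20% lower) of all genes. By label 15 were called, 9 shared in the same direction, 2 called in the opposite direction and 4 called by label alone (Fgfr2 higher, Fgf15, Spry1 and Il17rd lower). Over all genes, 6810 of 19332 were called by label. The marker counts were 0 higher and 8 lower of 9 for bulb and forebrain, 5 higher and 0 lower of 7 for glia, 4 higher and 1 lower of 7 for mesenchyme and 4 higher and 0 lower of 4 for mural cells. Etv1 was lower (-2.30, SE 0.19, adjusted p = 2.42e-10; by label 0.42, adjusted p = 0.410), as were Fgf13 (-3.30, SE 0.41, adjusted p = 1.89e-07; by label -0.82, adjusted p = 0.247) and Fgf9 (-1.54, SE 0.23, adjusted p = 3.18e-06; by label -0.15, adjusted p = 0.783). Etv5 (0.92, SE 0.20, adjusted p = 4.51e-04; by label 0.85, adjusted p = 2.73e-03) and Spry4 (0.92, SE 0.15, adjusted p = 1.37e-05; by label 0.89, adjusted p = 5.73e-05) were higher under both groupings. Fgf7 was higher (2.67, SE 0.71, adjusted p = 3.13e-03; by label -2.85, adjusted p = 0.0241), a call of opposite direction by label and lost without outer ONL replicate 3 (difference 1.19, adjusted p = 0.173). The call of Fgfr3 was lost without the library labelled E11.5 olfactory nerve replicate 2 or 3, or else outer ONL replicate 3 (difference 1.45 to 1.67, adjusted p = 0.0544 to 0.0895), that of Fgfrl1 without the library labelled E11.5 olfactory nerve replicate 1 or 3, or else outer ONL replicate 2 or 3 (difference 0.55 to 0.67, adjusted p = 0.0785 to 0.147) and that of Spred2 without the library labelled E11.5 olfactory nerve replicate 3, or else the library labelled E13.5 olfactory nerve replicate 1, or else outer ONL replicate 1 or 4 (difference -0.50 to -0.37, adjusted p = 0.058 to 0.132). By label, Fgfr3 (-0.76, adjusted p = 0.380) and Fgfrl1 (-0.54, adjusted p = 0.259) had the opposite sign and were not called.

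The difference between ONL and nerve itself was tested between stages, with outer ONL standing for the E16.5 ONL, and 6 of 32 genes were called, 4 higher and 2 lower at E16.5, beside 12.3% (5.59% higher and 6.75% lower) of all genes. It was lower at E16.5 for Etv1 (-1.63, SE 0.25, adjusted p = 5.18e-05; by label 1.73, adjusted p = 0.0287) and Fgf13 (-2.52, SE 0.52, adjusted p = 1.22e-03; by label 0.76, adjusted p = 0.563), with the sign reversed by label in both. It was higher for Fgf11 (1.31, SE 0.36, adjusted p = 0.0126; by label 1.56, adjusted p = 0.0111). The call of Il17rd (0.81, SE 0.25, adjusted p = 0.0283; by label -0.72, adjusted p = 0.131) was lost without the library labelled E13.5 olfactory nerve replicate 1, or else E16.5 nerve replicate 1, 2 or 4, or else outer ONL replicate 2 or 4 (difference 0.61 to 0.79, adjusted p = 0.0501 to 0.0994). The calls of Fgf7 (2.55, SE 0.84, adjusted p = 0.0425; by label -3.27, adjusted p = 0.079) and Etv4 (0.88, SE 0.30, adjusted p = 0.0465; by label -1.09, adjusted p = 0.054) were lost without any 1 of 12 and 15 libraries, and Fgf7 fell to 1.07 (adjusted p = 0.438) without outer ONL replicate 3. The count was 3 without E16.5 nerve replicate 2.

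The remaining genes are given by range over all libraries. Fgf5 was at 0 to 1.11 CPM and was called in no comparison. Fgf8, which patterns the nasal region and forebrain in early embryos, reached at most 0.517 CPM, and Fgf17 at most 5.46, both in the library labelled E13.5 ONL replicate 5. The feedback inhibitor Spry2 ranged from 1.66 to 10.5 CPM and was called in 1 comparison. With outer ONL and E16.5 nerve fitted alone and the replicate number as a block, Spry2 was also called between them (1.01, SE 0.31, adjusted p = 0.0424). Spry3, at 0.0712 to 7.82 CPM, was called in none, and Spry4, at 29.7 to 96.2, in 4. Spred1, at 30.9 to 69.0 CPM, was called in 2 and Spred2, at 10.8 to 30.6, in 1.

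Of 68 other genes of the pathway, 63 were tested. These lists, like the FGF genes, were tested under the grouping used here. In outer ONL against nerve 7 were higher and 15 lower, beside 22% (10.2% higher and 11.8% lower) of all genes, and in E13.5 ONL against nerve 16 were higher and 20 lower, beside 31.5% (15.4% higher and 16.1% lower). By role, the E16.5 counts were 4 higher and 6 lower of 21 heparan sulfate proteoglycans and enzymes, 0 higher and 3 lower of 6 binding proteins and co-receptors, 1 higher and 1 lower of 12 adaptors, 2 higher and 1 lower of 11 members of the Ras and MAP kinase cascade and 0 higher and 3 lower of 12 other responses of the cascade. The genes named next were chosen after their values were seen.

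Sulf1, an extracellular sulfatase acting on heparan sulfate, was at 3.74 ± 2.89 CPM (SD, n = 4) in outer ONL, 43.8 ± 15.3 (n = 4) in E16.5 nerve and 452 ± 129.6 (n = 3) in trigeminal nerve. Outer ONL was lower than olfactory nerve (log2 difference -3.55, SE 0.41, adjusted p = 1.13e-07). Hs3st1, a heparan sulfate sulfotransferase, was higher in outer ONL, at 191 ± 40.1 against 24.1 ± 10.02 CPM (log2 difference 2.99, SE 0.26, adjusted p = 1.16e-09). Map2k1, a kinase of the MAP kinase cascade, was higher in outer ONL than in E16.5 nerve (log2 difference 1.51, SE 0.22, adjusted p = 5.68e-06). Flrt1, Flrt2 and Flrt3, membrane proteins of which some bind FGF receptors, were lower in outer ONL than in nerve, with the largest difference of these for Flrt2 (log2 difference -1.66, SE 0.29, adjusted p = 5.92e-05). Dusp4, a nuclear MAP kinase phosphatase, was lower in outer ONL than in E16.5 nerve, at 3.17 ± 1.10 against 8.99 ± 4.81 CPM (log2 difference -1.50, SE 0.41, adjusted p = 7.35e-03). In E13.5 ONL it was higher than in E13.5 nerve, at 77.4 ± 21.8 (n = 5) against 7.67 ± 2.58 (n = 7) CPM (log2 difference 3.32, SE 0.33, adjusted p = 2.16e-09), a difference not recomputed by label. Ccnd1, cyclin D1, was lower in outer ONL, at 57.8 ± 8.83 against 121 ± 20.1 CPM (log2 difference -1.06, SE 0.20, adjusted p = 1.35e-04).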

How the data were processed

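The authors microdissected nerve pieces, amplified the RNA with SMART-seq v4, which does not mark strand, made libraries with Nextera XT, aligned the reads to mm10 with TopHat2 2.1.0 and deposited raw counts of reads per gene from HTSeq. The HTSeq settings are not given in the sources used here. The deposited counts of 31 libraries were used unchanged, apart from 1 row with no gene name, which was left out. All 34 genes were found, with positions from GRCm38 (GENCODE M21).

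Groups of the early libraries followed the study's table of group means, whose values they match, and grouping by label was the alternative. The genes, the pathway list and the marker lists were chosen with earlier results of these data known. Counts were scaled by TMM, filtered with filterByExpr by group and tested by edgeR 4.0.16 (R 4.3.3) in 1 fit of 7 groups, with Benjamini-Hochberg adjustment over 19332 genes. The fit was checked on simulated counts. Levels were given per library for genes called in a comparison of ONL with nerve or of the ONL layers and for the 3 genes with the lowest adjusted p in each other comparison, and by range for the rest. Levels of 3 counts or fewer were taken as the floor, and limits from it cover counting error only. DESeq2 1.42.0, other scalings, filters, thresholds and subsets of libraries were alternatives. The labels do not name the embryo of each library, so p-values measure the spread between libraries. No 2 libraries held the same counts.

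The labels number the replicates. Residuals of 10727 genes in E16.5 nerve and outer ONL correlated at 0.25 to 0.53 between libraries of the same number and at -0.41 to 0.38 between others, so the number was taken to pair these 2 groups, from the values alone. In no other pair of groups did every same-number correlation exceed 0.1. Figures were drawn with matplotlib 3.10.9.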

Additional observations from a re-analysis of the deposited data

Results flagged for a closer look

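In 11 of 160 levels, each 1 gene in 1 group of 4 or more libraries with a mean of at least 1 CPM, a single library stood far from the others of its group. Chance gives about 1 in 20, and the share here was 6.88%.

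Among the ligands, Fgf7 in outer ONL replicate 3 was at 3.913 CPM, with the others at 0.3052 to 0.5653, and without it Fgf7 was not called between E13.5 ONL and outer ONL. Fgf15 in the E13.5 ONL library labelled E11.5 nerve replicate 2 was at 6.697 CPM, with the others at 0.3583 to 1.35. Fgf9 in inner ONL replicate 2 was at 53.11 CPM, with the others at 31.1 to 34.86. Fgf18 in E16.5 nerve replicate 3 was at 0.9752 CPM, with the others at 2.166 to 2.352. Fgf2 in the E13.5 nerve library labelled with number 3 was at 18.89 CPM, with the others at 8.219 to 12.73. The homologous factor Fgf11 in the E13.5 ONL library labelled E11.5 nerve replicate 2 was at 7.993 CPM, with the others at 7.309 to 7.471.

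Among receptors, Fgfr2 in E16.5 nerve replicate 2 was at 44.43 CPM, with the others at 23.98 to 24.96. Fgfr3 in the E11.5 nerve library labelled E13.5 ONL replicate 2 was at 13.49 CPM, with the others at 3.749 to 5.302. Among the inhibitors, Spry4 in the E11.5 nerve library labelled E13.5 ONL replicate 4 was at 44.65 CPM, with the others at 37.95 to 38.42. Spry3 in the E13.5 ONL library labelled E11.5 nerve replicate 1 was at 7.194 CPM, with the others at 3.672 to 4.487, and Spred2 in inner ONL replicate 1 was at 10.9 CPM, with the others at 16.78 to 17.35.

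The difference between ONL and nerve changed between E13.5 and E16.5 by an interaction test in edgeR for 6 genes. The change in log2 difference was 2.55 (SE 0.84, adjusted p = 0.0425) for Fgf7, 1.31 (SE 0.36, adjusted p = 0.0126) for Fgf11, -2.52 (SE 0.52, adjusted p = 1.22e-03) for Fgf13, -1.63 (SE 0.25, adjusted p = 5.18e-05) for Etv1, 0.88 (SE 0.30, adjusted p = 0.0465) for Etv4 and 0.81 (SE 0.25, adjusted p = 0.0283) for Il17rd. Fgf11 was the 1 gene of these called in the same direction with the early libraries grouped by label, and Etv1 was then called in the opposite direction.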

How the results depend on the processing

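Among alternatives run on all 120 single calls, grouping the early libraries by label changed the most. Of these, 66 kept direction and threshold by label, 36 lost the call and 18 reversed, and the cause was not tested. The count by label was 4 in inner against outer ONL and 3 in E13.5 ONL against nerve, beside 1658 and 3421 of all 19332 genes. The log2 differences that reversed were -0.37 for Fgf13, 0.035 for Fgfr1, -0.65 for Etv1 and 0.51 for Il17rd in E13.5 ONL against nerve, 0.51 for Etv4, 0.13 for Dusp6 and 0.86 for Il17rd from E11.5 to E13.5 nerve, -2.85 for Fgf7, -0.76 for Fgfr3, -0.54 for Fgfrl1, 0.42 for Etv1, -1.14 for Etv4 and -0.39 for Dusp6 in outer against E13.5 ONL, and -3.27 for Fgf7, 0.76 for Fgf13, 1.73 for Etv1, -1.09 for Etv4 and -0.72 for Il17rd in the change of the ONL to nerve difference. With the labelled groups compared alone and the replicate number as a block, the counts were 0 in E13.5 ONL against nerve, 0 from E11.5 to E13.5 nerve, 4 from E13.5 to E16.5 nerve and 3 in outer against E13.5 ONL, by edgeR. Over all genes these fits called 3 of 16768, 0 of 16074, 2274 of 16553 and 2740 of 16000, in the same order. The counts of 0 thus come from fits that called almost no gene. At an unadjusted p under 0.05, 6 and 10 FGF genes passed in the comparisons with a count of 0, and the share of all genes passing is not given here. The values reversed under that replicate block were -0.089 for Fgf13, 0.15 for Fgfr1, 0.38 for Fgfr3, -0.38 for Etv1 and 0.64 for Il17rd in the first of these, -0.085 for Fgf11, 0.51 for Etv4, 0.055 for Dusp6 and 0.72 for Il17rd in the next, and -2.666 for Fgf7, -0.91 for Fgfr3, -0.54 for Fgfrl1, 0.37 for Etv1, -0.92 for Etv4 and -0.26 for Dusp6 in the last.

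At E16.5 the fits of each pair of groups alone with the replicate block gave counts of 16 in outer ONL against nerve, 14 in outer ONL against trigeminal nerve, 10 in olfactory against trigeminal nerve and 10 in inner against outer ONL. Over all genes they called 5103 of 16239, 3283 of 16500, 3100 of 16984 and 2721 of 15717. Against the main fit, the block and the set of libraries changed together. These fits added the calls of Fgf2, Fgfr4 and Spry2 in the first of these comparisons, Fgfr4 for outer ONL beside trigeminal nerve and between layers, and Fgfr3 between the nerves. They ended the calls of Etv4 (0.69, adjusted p = 0.07025) for outer ONL beside trigeminal nerve, Fgfrl1 (0.96, adjusted p = 0.07706) and Il17rd (0.73, adjusted p = 0.08673) between the nerves and Fgfr3 (-2.11, adjusted p = 0.05503) between layers, and of the 48 calls these fits could give the other 44 held. Dropping the early libraries from the fit, without a block, kept each of the 48 E16.5 calls it could give. A log2 difference of at least 1 left 8 FGF genes from E13.5 to E16.5 nerve and 11 in outer against E13.5 ONL. Beside them stood 2374 and 4594 of all 19332 genes.

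Leaving out 1 library in turn gave counts of 12 to 14 in outer ONL against nerve, 12 to 15 against trigeminal nerve, 9 to 12 between the nerves, 4 to 10 between ONL layers, 15 to 16 in E13.5 ONL against nerve, 13 to 20 from E11.5 to E13.5 nerve, 11 to 14 from E13.5 to E16.5 nerve, 15 to 18 in outer against E13.5 ONL and 3 to 7 in the change between stages. DESeq2, DESeq2 size factors in edgeR and upper-quartile scaling each kept 118 of 120 calls, total-count scaling 116, no filter 109 and the stricter filter 120, and none of these reversed a call. Total-count scaling kept 224 of 238 group levels within 1 SD. Genes at a few counts, such as Fgf3, Fgf16 and Fgf20, are limited by depth.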
